A study of Mus musculus with 31 samples.

Results

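Type I and type II interferons leave a shared mark on a cell: the transcription of a set of antiviral and antigen-defence genes, the interferon-induced genes, described here in the epididymal white adipose tissue (eWAT) and liver of male mice grouped by diets named for their fathers' side of the pedigree. The set held 37 genes, chosen by symbol from a list of classical interferon-induced genes, and all 37 were found among the 15987 genes counted in eWAT and among the 13677 genes counted in liver. By role they were 2 genes of the ISG15 system, 4 of the IFIT family, 5 of the OAS family, 3 transcription factors, 5 sensors of RNA and other nucleic acids, 4 immunity-related GTPases, 4 guanylate-binding proteins, 6 other antiviral effectors and 4 less characterised induced genes.

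RNA was sequenced from F1 males of the C57BL/6 strain, wild type, aged 24 weeks. Every animal received chow from weaning to 6 weeks of age and then a low-fat diet for 18 weeks, so the animals of all arms ate the same diet. The arms were HFLF, HF and LF, which the labels also give as the diets HFLFD, HFD and LFD. Because the animals themselves all ate the low-fat diet, the arm names are read here as those of the fathers' side, following the series title, since the labels do not state it. eWAT had 6 HFLF, 6 HF and 4 LF libraries, and liver had 6 HFLF, 5 HF and 4 LF libraries. The labels do not say whether each library came from a separate animal, so p-values measure the spread between these libraries, which may be technical.

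As background, interferon bound to its receptors activates the kinases JAK1 and TYK2, and these phosphorylate STAT proteins. The complex ISGF3, of which STAT2 and IRF9 are subunits, binds the interferon-stimulated response element (ISRE) of genes such as Isg15 and Ifit1. The gamma-activated site (GAS) is an element of genes induced by interferon gamma, among them GTPase genes such as Igtp. In adipose tissue and liver a low level of these genes is present without infection and is carried by resident macrophages as well as by the adipocytes and hepatocytes themselves.

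Library totals were 9278083 to 27230205 counts in eWAT and 9225373 to 17268415 counts in liver. The defining adipocyte gene Adipoq stood at 2647 to 5010 CPM, read counts scaled to a common library size, in the eWAT libraries, and the hepatocyte gene Alb at 46648 to 83076 CPM in the liver libraries. The summed level of 5 sperm-cell genes was 17.9 to 116 CPM in the eWAT libraries HF 2, HF 6, LF 3 and LF 6, and at most 4.02 CPM in the other 12. The summed level of 10 B cell genes was 570 CPM in LF 2, 217 CPM in HF 5 and 116 CPM in HF 3, against at most 36.5 CPM in the other 13 eWAT libraries. HF 5 in eWAT also stood apart in the interferon-induced genes themselves, so the counts over members, role groups and lists in eWAT are also given without it. In such bulk samples, fewer cells of a type and less RNA per cell cannot be told apart.

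Short stretches of the promoters show the elements by which these genes are recognised. A window from 250 bases before to 50 bases after the start was held for 28 members in RefSeq on GRCm38.p6. The ISRE core GAAANNGAAA, searched on both strands (N is any base), occurred in the windows of 20 of the 28 members, against 3.99% of 27025 genes with a window. The palindromic GAS letters TTCNNNGAA occurred in 8 of the 28 members, against 9.55% of genes. The 2 motifs can overlap by a few letters, as they did at Bst2. The members without a window were Oas2, Mx1, Usp18, Ifi27l2a, Dhx58, Iigp1, Rtp4, Zbp1 and Parp14. A match is a description of letters and no measurement of binding.

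The 11 stretches below are those of the members that the results turn on or that are near copies of one another. Each reads 5′ to 3′ along the gene's strand with 10 bases on either side of the outermost match, up to the start itself, from RefSeq on GRCm38.p6. Capitals mark the motif letters, and TTTC pairs are the ISRE core read on the other strand.
Isg15, chr4:156200865-156200906, reverse strand, bases -88 to -47 of the start: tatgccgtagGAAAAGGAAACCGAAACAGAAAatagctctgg
Ifit1, chr19:34640775-34640823, forward strand, bases -114 to -66 of the start: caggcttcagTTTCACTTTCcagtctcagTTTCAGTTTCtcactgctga
Ifit3, chr19:34583363-34583426, forward strand, bases -166 to -103 of the start: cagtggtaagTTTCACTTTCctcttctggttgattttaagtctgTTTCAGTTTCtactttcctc
Ifit3b, chr19:34607759-34607822, forward strand, bases -198 to -135 of the start: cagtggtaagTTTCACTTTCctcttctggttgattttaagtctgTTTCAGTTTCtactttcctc
Oas1a, chr5:120907526-120907633, reverse strand, bases -108 to -1 of the start: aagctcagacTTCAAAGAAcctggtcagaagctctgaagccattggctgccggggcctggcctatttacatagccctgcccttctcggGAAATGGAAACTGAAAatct
Irgm1, chr11:48871425-48871460, reverse strand, bases -40 to -5 of the start: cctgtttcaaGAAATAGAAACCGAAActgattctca
Igtp, chr11:58199501-58199541, forward strand, bases -55 to -15 of the start: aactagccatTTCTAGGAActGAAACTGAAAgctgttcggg
Irgm2, chr11:58214892-58214932, forward strand, bases -85 to -45 of the start: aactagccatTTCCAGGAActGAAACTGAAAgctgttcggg
Gbp2, chr3:142620594-142620623, forward strand, bases -69 to -40 of the start: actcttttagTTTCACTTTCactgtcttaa
Gbp7, chr3:142530220-142530302, forward strand, bases -116 to -34 of the start: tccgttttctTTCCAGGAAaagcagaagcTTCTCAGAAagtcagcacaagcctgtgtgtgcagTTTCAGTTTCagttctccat
Bst2, chr8:71537577-71537618, reverse strand, bases -146 to -105 of the start: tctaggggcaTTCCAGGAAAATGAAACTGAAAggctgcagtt

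Isg15 carried 3 overlapping ISRE cores, from base -78 to base -57. The Ifit3 and Ifit3b stretches were identical at 64 of 64 positions, and those of Igtp and Irgm2 at 40 of 41, where GAS letters and the ISRE core stood side by side. The near identity extended into the transcripts: 51.2% of the 50-base words of Ifit3 also occurred in another gene, nearly all in Ifit3b, as did 57.6% of those of Oas1a, shared with Oas1g. The counts of Ifit3, Ifit3b and Oas1a, and to a lesser degree of Igtp, Gbp7 and Rtp4, with 11.6% to 12.7% of shared words, are therefore uncertain in how reads were divided between copies.

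**Figure D1:**
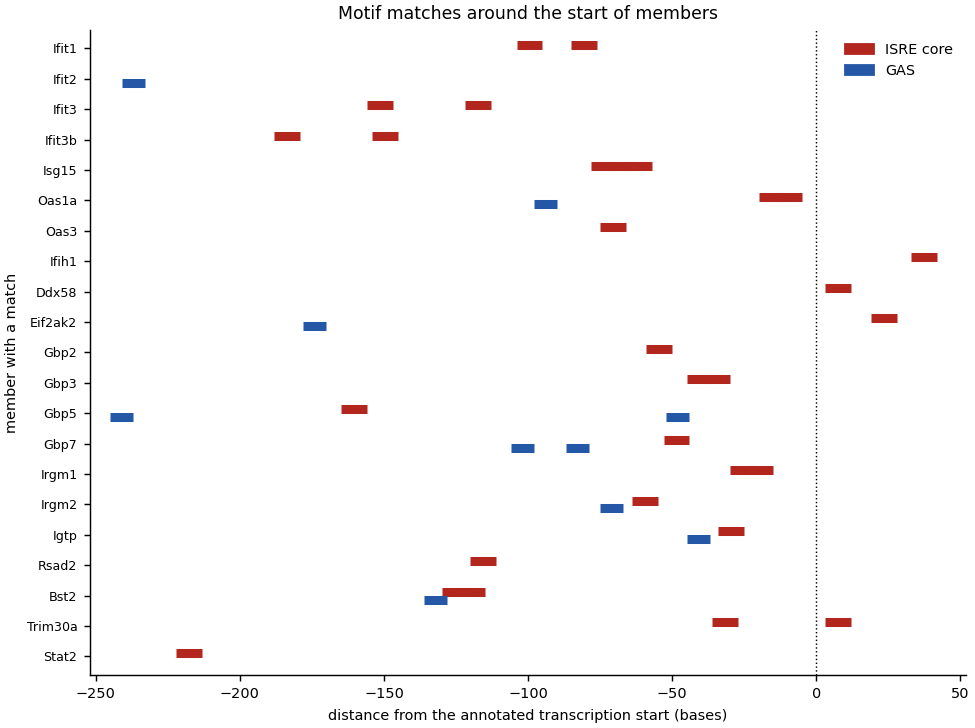
Positions of the ISRE core (red) and of the GAS letters (blue) in the promoter windows of the 21 members with at least 1 match. The horizontal axis gives the distance in bases from the annotated transcription start, dotted at 0, and each bar is 1 match. The 3 Isg15 cores lie between -78 and -57 and the 2 Ifit1 cores between -104 and -76.

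The members differed widely in level between the tissues. On a scale that joined both tissues, 32 of 37 members differed between liver and eWAT, 18 higher and 14 lower in liver (edgeR quasi-likelihood test, adjusted p under 0.05). Such differences were the rule for the 12735 genes shared by both tables: 85.5% were called, 42.6% higher and 42.9% lower in liver. The middle of the members lay farther from 0, with a median absolute log2 difference of 1.11 against 0.73 over all shared genes. Large differences were not more common among them: 6 of 37 members had an absolute log2 difference of at least 2, against 20.4% of all shared genes. Oas1a, Oas3, Mx1, Parp14 and Eif2ak2 did not pass.

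Ifi27l2a, which encodes a small interferon-induced protein, was the adipose extreme. It averaged 5.97 ± 2.12 CPM in liver and 826 ± 271 CPM in eWAT (SD, n = 15 and 16, joint scale), which is 137-fold higher in eWAT. Per kilobase of exon within eWAT it stood at 2196 CPM, rank 13 of 15969 genes. Next among members in eWAT, per kilobase, were Bst2 at 64.6 CPM, Gbp2 at 28.2 CPM and Ifit3 at 15.5 CPM.

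The guanylate-binding proteins, GTPases that attack membranes of intracellular pathogens, were also lower in liver. Gbp2 averaged 4.88 ± 1.61 CPM in liver and 57.8 ± 10.9 CPM in eWAT on the joint scale, 12.1-fold higher in eWAT. Gbp5 was 9.64-fold higher in eWAT, and Gbp3 and Gbp7 were 2.44-fold and 1.7-fold higher there. Within the OAS family, synthases of the 2-5A messenger that activates RNase L and their relatives, the members went opposite ways. Oas2 and Oasl2 were 3.95-fold and 2.50-fold higher in eWAT, whereas Oasl1 was 7.35-fold higher in liver.

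All 4 immunity-related GTPases, which act on the vacuoles of intracellular parasites, were higher in liver. Iigp1 averaged 367 ± 55.2 CPM in liver and 32.1 ± 10.7 CPM in eWAT on the joint scale, an 11.4-fold difference, and Igtp, Irgm1 and Irgm2 were 2.50-fold, 2.42-fold and 2.27-fold higher in liver. Bst2, or tetherin, which holds budding virus at the cell surface, was 4.76-fold higher in liver. The ISGF3 subunits Stat2 and Irf9 were 3.37-fold and 1.92-fold higher in liver, and Irf7, the factor that amplifies interferon production, 2.22-fold. Per kilobase within liver, Bst2 led the members at 184 CPM, followed by Iigp1 at 46.4 CPM, Igtp at 15.7 CPM and Stat2 at 14.9 CPM.

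**Figure D2:**
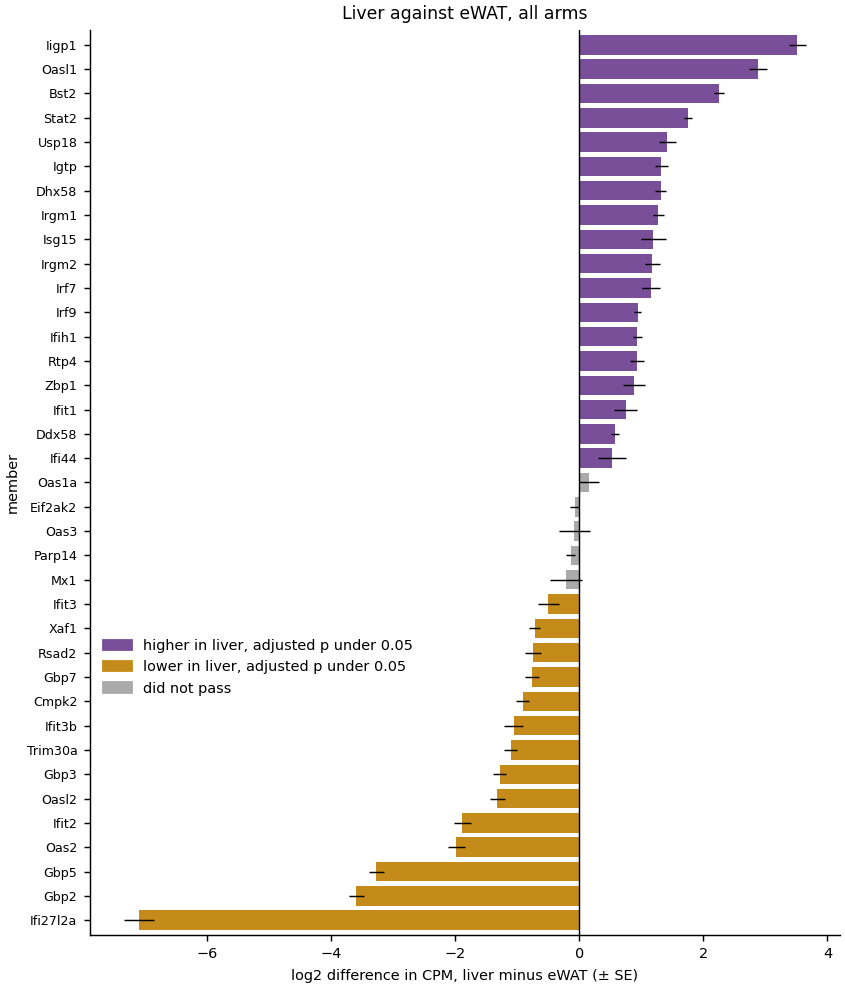
Log2 difference in CPM, liver minus eWAT, averaged over the 3 arms, for each of the 37 members, with its standard error. Bars to the right are higher in liver and bars to the left lower, and the 5 grey bars did not pass at an adjusted p of 0.05. Iigp1 stands at 3.51 and Ifi27l2a at -7.09.

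Between the arms, the members did not pass the test in either tissue. In eWAT, edgeR called 0 of 37 members and 0% of the 15987 genes in each of the 3 comparisons, and DESeq2 and limma voom called 0 members. Over all genes limma voom called 0, and DESeq2 called 52 for HFLF minus HF, 69 for HFLF minus LF and 12 for HF minus LF. What the members show in eWAT is a common direction. Members also varied together from library to library, as given further below, so counts of members are not counts of independent genes. In HFLF minus HF, 36 of 37 members had a fitted log2 difference below 0, against 49.7% of all genes, with a median of -0.29 for members and 0.00 for all genes. At an unadjusted p under 0.05 there were 13 members, all lower in HFLF, where 4.43% of all genes were lower at that level.

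HFLF minus LF ran the same way, with the HFLF libraries shared between both comparisons. There, 31 of 37 members had a difference below 0, against 47.9% of all genes, and the median was -0.24 for members and 0.01 for all genes. At an unadjusted p under 0.05 there were 9 members, all lower in HFLF, against 7.06% of genes lower at that level. The lowest of the 16 eWAT libraries was an HFLF library for 20 members, an HF library for 4 and an LF library for 13. Over all genes these shares were 32.3%, 27.9% and 39.8%. The single library most often lowest was LF 6, for 9 members, followed by HFLF 5 for 7 and HFLF 6 for 6. For 32 members the highest library was an HF one, where HF libraries were the highest for 27.8% of all genes, and for 28 of these 32 it was the single library HF 5.

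**Figure D3:**
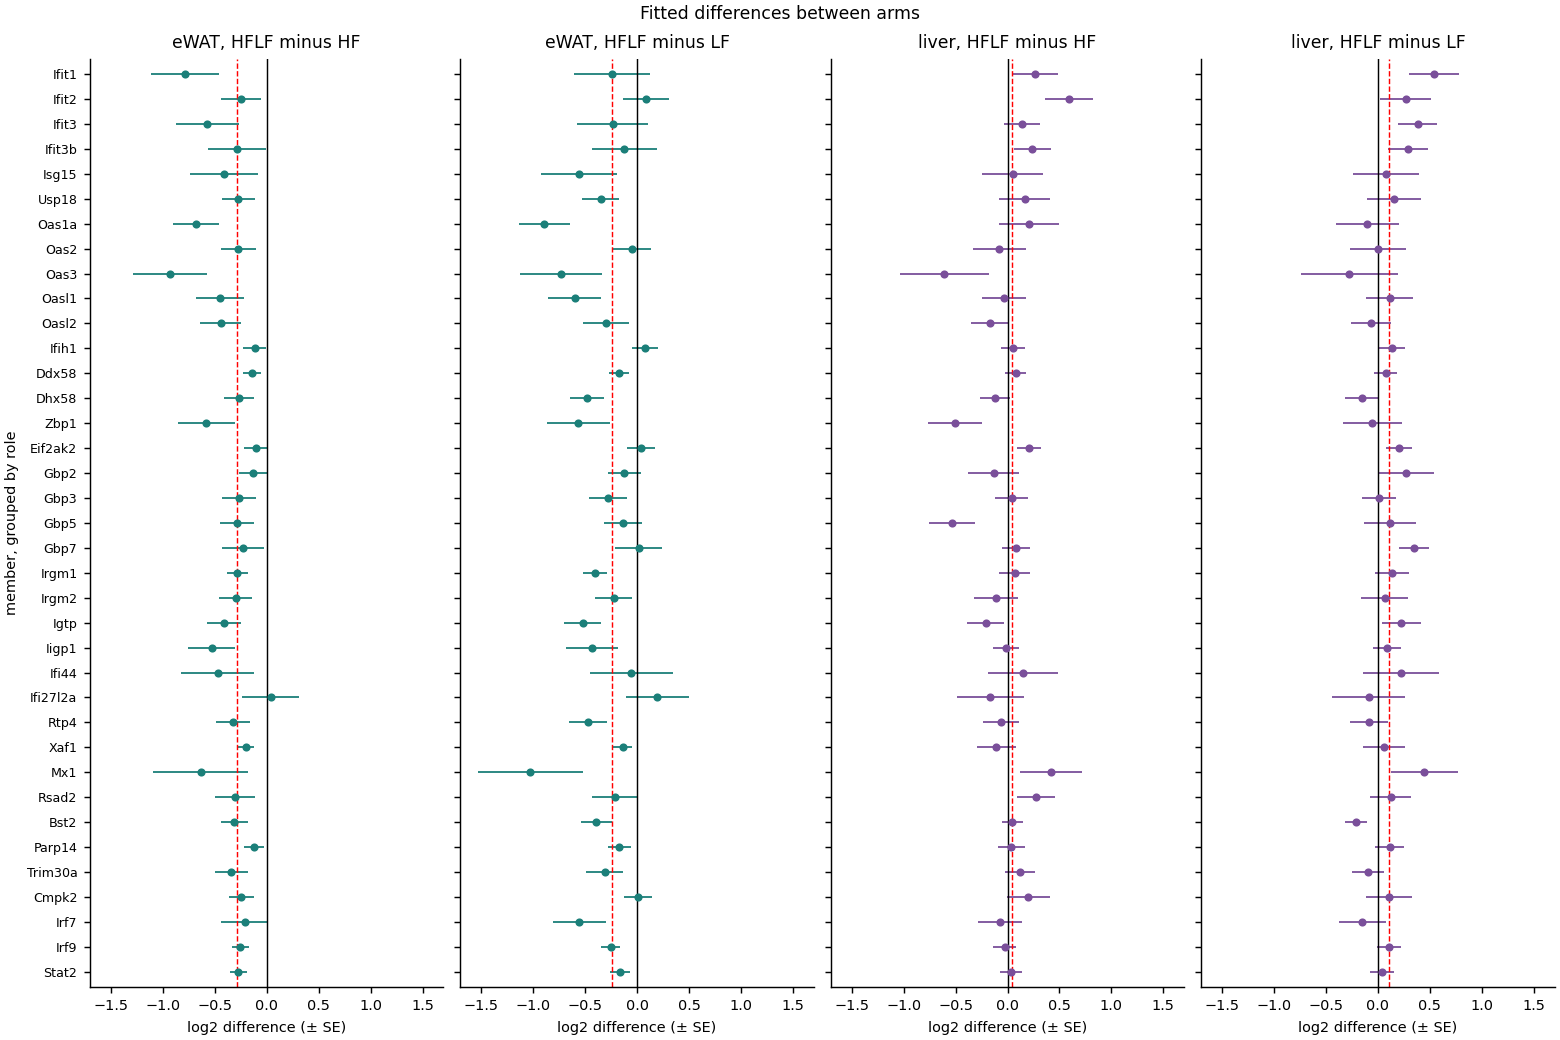
Fitted log2 differences of the 37 members with their standard errors, HFLF minus HF and HFLF minus LF, in eWAT (left pair) and liver (right pair). The dashed red line is the median over members, which is -0.29 and -0.24 in eWAT and 0.04 and 0.11 in liver, and the black line is 0.

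By role, the members below 0 in HFLF minus HF were 5 of 5 of the OAS family with a median of -0.45, 4 of 4 of the IFIT family with -0.43, 4 of 4 immunity-related GTPases with -0.35 and 2 of 2 of the ISG15 system with -0.34. They were also 6 of 6 other antiviral effectors with -0.31, 4 of 4 guanylate-binding proteins with -0.25, 3 of 3 transcription factors with -0.25, 5 of 5 sensors with -0.14 and 3 of 4 less characterised genes with -0.26. In HFLF minus LF the OAS family had the median farthest from 0, -0.60, and the less characterised genes the nearest, -0.10, with 3 of 4 below 0. Without HF 5, the HFLF minus HF medians were -0.30 for the OAS family, -0.12 for the IFIT family with 3 of 4 below 0, -0.25 for the immunity-related GTPases and 0.01 for the ISG15 system with 1 of 2 below 0. They were then -0.17 for the other antiviral effectors, -0.18 for the guanylate-binding proteins, -0.21 for the transcription factors with 2 of 3 below 0, -0.08 for the sensors and -0.14 for the less characterised genes.

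Of the 3 transcription factors, Stat2 and Irf9 had smaller standard errors than Irf7. Stat2 ranged from 36.2 to 43.6 CPM around a median of 39.1 in HFLF eWAT, and from 41.2 to 55.8 CPM around a median of 47.4 in HF eWAT, while the LF libraries had 46.5, 37.3, 49.1 and 43.9 CPM. Only part of the HFLF range reached into the HF range. The log2 difference HFLF minus HF was -0.27 ± 0.08 (SE, edgeR adjusted p = 0.428). Irf9, the DNA-binding subunit of ISGF3, ranged from 30.2 to 38.6 CPM (median 31.6) in HFLF, from 34.4 to 44.9 CPM (median 39.4) in HF, and stood at 43.6, 39.5, 36.5 and 38.2 CPM in LF. Its difference was -0.25 ± 0.08 against HF and -0.26 ± 0.09 against LF (edgeR adjusted p = 0.428 and 0.324).

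Irf7 was more spread out. It ranged from 26.7 to 38.4 CPM (median 32.8) in HFLF and from 25.1 to 72.5 CPM (median 29.1) in HF, against 37.9, 61.9, 46.5 and 46.8 CPM in LF. The HFLF and HF medians were close together and the LF libraries stood above most of both, with only HFLF 3 and the HF libraries HF 4 and HF 5 reaching the LF range. The HFLF minus LF difference was -0.56 ± 0.25 (edgeR adjusted p = 0.439).

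In the ISG15 system, Isg15, the ubiquitin-like protein conjugated to targets during infection, ranged from 3.34 to 7.04 CPM (median 5.20) in HFLF eWAT and from 3.72 to 16.9 CPM (median 4.96) in HF eWAT, against 8.04, 6.68, 8.80 and 6.33 CPM in LF. The top of the HF range was the single library HF 5, and the other 5 HF libraries lay at or below 5.24 CPM, under all LF libraries. The difference HFLF minus LF was -0.56 ± 0.36 (edgeR adjusted p = 0.610). For Usp18, the protease that removes ISG15 and damps the receptor, it was -0.35 ± 0.18.

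The IFIT proteins bind foreign RNA and block its translation. Ifit1 ranged from 5.25 to 9.02 CPM (median 6.89) in HFLF eWAT and from 6.41 to 29.0 CPM (median 8.04) in HF eWAT, against 9.39, 8.59, 9.06 and 5.64 CPM in LF. Ifit3 ranged from 17.4 to 27.4 CPM (median 21.9) in HFLF and from 19.4 to 78.9 CPM (median 23.1) in HF, against 20.4, 24.2, 33.2 and 26.6 CPM in LF. Its near copy Ifit3b ranged from 5.98 to 10.6 CPM (median 8.02) in HFLF and from 5.96 to 21.5 CPM (median 7.39) in HF, against 6.89, 7.63, 11.1 and 9.66 CPM in LF. In all 3 genes the groups overlapped and HF 5 alone made the HF maximum. The HFLF minus HF differences were -0.79 ± 0.33 for Ifit1, -0.57 ± 0.30 for Ifit3 and -0.29 ± 0.28 for Ifit3b (edgeR adjusted p of 0.50 for Ifit1, 0.572 for Ifit3 and 0.784 for Ifit3b).

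In the OAS family all 5 members were below 0 against HF and against LF. Oas1a ranged from 3.04 to 5.93 CPM (median 4.01) in HFLF eWAT and from 4.36 to 10.3 CPM (median 6.33) in HF eWAT, against 7.5, 10.6, 6.89 and 5.90 CPM in LF. Only HFLF 2, at 5.93 CPM, reached the lowest LF library. The differences were -0.89 ± 0.24 against LF and -0.68 ± 0.22 against HF (edgeR adjusted p = 0.282 and 0.428). Oas3, the largest of the OAS proteins, ranged from 1.07 to 2.03 CPM (median 1.65) in HFLF and from 1.66 to 7.29 CPM (median 2.40) in HF, against 3.04, 4.45, 1.98 and 1.45 CPM in LF, and its difference against HF was -0.93 ± 0.35.

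The immunity-related GTPases were also all below 0 in both comparisons. Irgm1, a regulator of the family, ranged from 23.4 to 29.6 CPM (median 26.5) in HFLF eWAT and from 27.6 to 39.1 CPM (median 31.7) in HF eWAT, against 38.8, 36.4, 37.6 and 27.4 CPM in LF. LF 6, at 27.4 CPM, was the one LF library within the HFLF range. The differences were -0.41 ± 0.11 against LF and -0.28 ± 0.10 against HF (edgeR adjusted p = 0.282 and 0.444). Igtp and Iigp1 differed from HF by -0.41 ± 0.16 and -0.53 ± 0.23. The guanylate-binding proteins lay nearer 0, from -0.29 ± 0.16 for Gbp5 to -0.13 ± 0.14 for Gbp2 against HF. Gbp2 ranged from 58.3 to 76.2 CPM (median 68.0) in HFLF and from 54.9 to 99.8 CPM (median 70.1) in HF, against 86.5, 60.9, 89.8 and 55.0 CPM in LF, so the 3 groups overlapped.

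Among the sensors, Dhx58, which encodes LGP2, a regulator of the RNA sensors RIG-I and MDA5, ranged from 8.46 to 14.5 CPM (median 9.22) in HFLF eWAT and from 9.95 to 16.1 CPM (median 11.96) in HF eWAT, against 15.7, 14.1, 11.7 and 16.1 CPM in LF. Its difference against LF was -0.48 ± 0.16 (edgeR adjusted p = 0.286). HFLF 2, at 14.5 CPM, stood apart from the other 5 HFLF libraries, which were at or below 11.2 CPM. Ifih1, the gene of MDA5, ranged from 27.1 to 33.0 CPM (median 30.6) in HFLF and from 26.2 to 39.7 CPM (median 31.8) in HF, against 30.2, 27.1, 35.0 and 21.6 CPM in LF, and its difference against LF was 0.07 ± 0.13.

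The sensor genes Ddx58, which encodes RIG-I, Eif2ak2 and Zbp1 differed from HF by -0.14 ± 0.09, -0.11 ± 0.12 and -0.58 ± 0.27. Among the other antiviral effectors, Mx1, a dynamin-like GTPase, differed by -0.63 ± 0.46, Trim30a by -0.34 ± 0.16, Rsad2, the gene of viperin, by -0.31 ± 0.20, Cmpk2 by -0.24 ± 0.12 and the ADP-ribosyltransferase gene Parp14 by -0.12 ± 0.10. Oas2, Oasl1 and Oasl2 differed by -0.27 ± 0.17, -0.45 ± 0.23 and -0.44 ± 0.20, and Xaf1, Rtp4 and Ifi44 by -0.20 ± 0.08, -0.32 ± 0.16 and -0.47 ± 0.35. None of these passed (edgeR adjusted p of 0.497 to 0.822).

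Bst2 ranged from 40.5 to 62.9 CPM (median 47.4) in HFLF eWAT and from 49.1 to 85.3 CPM (median 58.8) in HF eWAT, against 63.2, 55.8, 66.3 and 77.4 CPM in LF, with a difference against LF of -0.39 ± 0.15 (edgeR adjusted p = 0.343). Among HFLF libraries, HFLF 3, HFLF 4, HFLF 5 and HFLF 6 lay under every HF and LF library. Ifi27l2a was the 1 member not below 0 against HF. It ranged from 728 to 1686 CPM (median 929) in HFLF and from 542 to 1584 CPM (median 967) in HF, against 538, 1153, 836 and 1184 CPM in LF, with a difference against HF of 0.04 ± 0.27. Its groups overlapped almost entirely.

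HF minus LF in eWAT had no common direction, with 22 members above and 15 below 0, where 50.9% of all genes lay below 0, and a median of 0.06. No member reached an unadjusted p under 0.05, where 7.04% of all genes did. Cmpk2, a mitochondrial nucleotide kinase gene beside Rsad2, ranged from 14.3 to 24.8 CPM (median 17.2) in HF, against 16.1, 15.9, 16.8 and 14.1 CPM in LF, a difference of 0.25 ± 0.14. Ifit2 ranged from 18.1 to 32.3 CPM (median 23.1) in HF, against 19.7, 20.2, 25.3 and 12.4 CPM in LF, a difference of 0.33 ± 0.22. The HF and LF ranges overlapped for both genes.

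**Figure D4:**
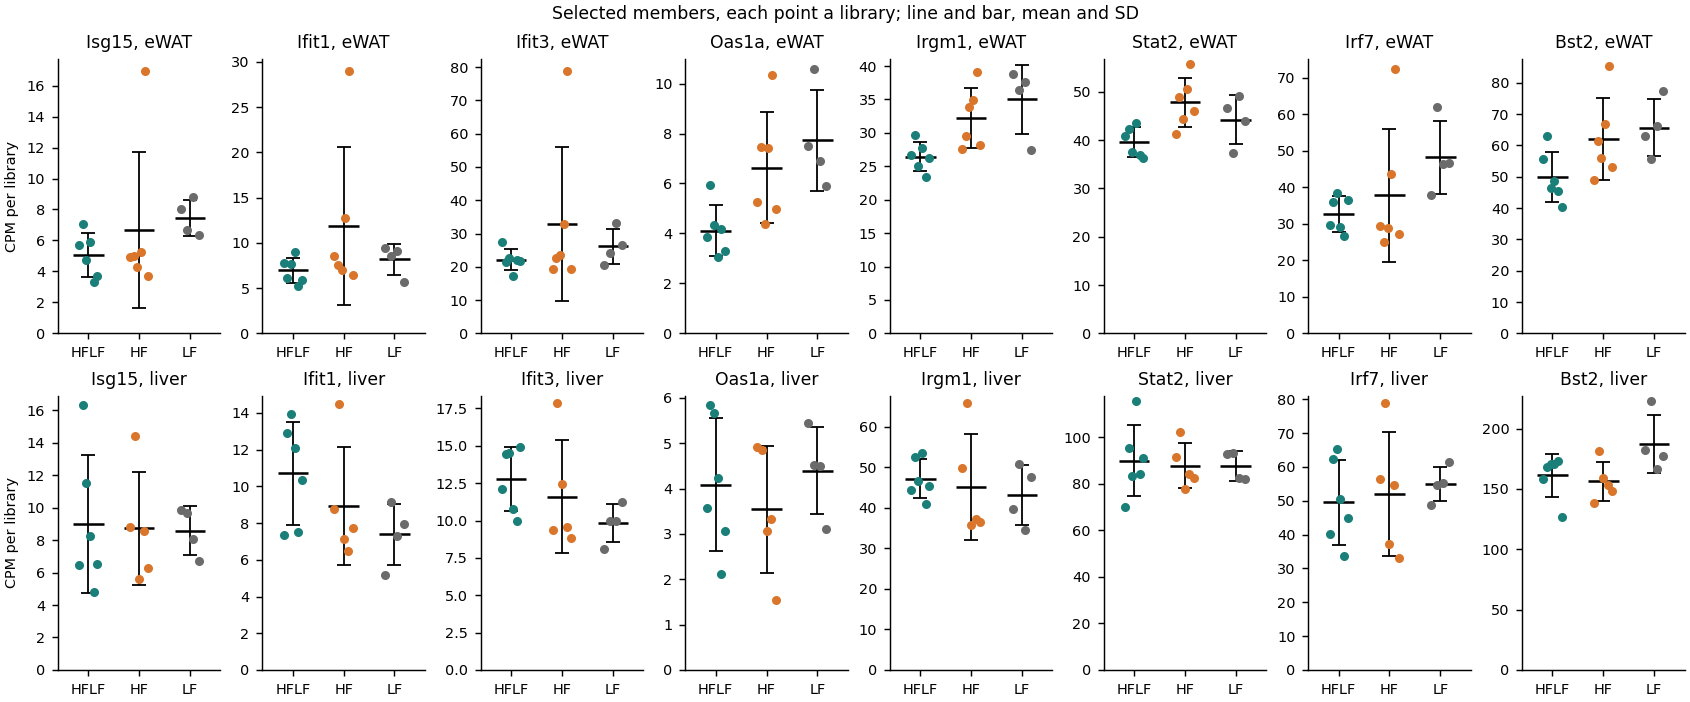
CPM per library (points) with the mean and SD (line and bars) of 8 members in eWAT (top) and liver (bottom), for HFLF, HF and LF from left to right, with each vertical axis starting at 0. In eWAT the HF library HF 5 is the highest HF point in every panel, at 16.9 CPM for Isg15 and 78.9 CPM for Ifit3.

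The eWAT library HF 5 stood apart in the members. It was the highest of the 16 libraries for 28 of 37 members, against 4.16% of all genes, and lay above the mean of the tissue for 37 of 37. Its ratio to the median of the other libraries had a median of 1.58 over the members. It was 3.79 for Oas3, 3.77 for Ifit1, 3.49 for Ifit3, 3.23 for Isg15 and 1.13 for Ifi27l2a. By role, the mean log2 deviation of HF 5 was 1.35 for the IFIT family, 1.10 for the ISG15 system and 0.96 for the OAS family, and 0.57 for the immunity-related GTPases and 0.41 for the guanylate-binding proteins. The median ratio was 1.55 over the 20 members with an ISRE core and 1.56 over the 8 with a window but no core.

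HF 5 also had the second highest B cell sum, 217 CPM, and the highest Alb level of the eWAT libraries, 207 CPM. Its summed level of the measured hepatocyte genes, 4666 CPM, was below that of LF 3, 8789 CPM. LF 2, with a B cell sum of 570 CPM, had a mean member deviation of 0.16, against 0.73 in HF 5, and HF 3, at 116 CPM, of -0.00. The part of these cells in the HF 5 values was not tested. Without HF 5, HFLF minus HF had 33 of 37 members below 0, a median of -0.17 and 4 members at an unadjusted p under 0.05, all lower in HFLF, against 2.81% of genes lower at that level. HFLF minus LF, which does not use HF 5 but shares the estimate of the spread, then had 31 members below 0 and 15 at that level, against 7.09% of genes lower. HF minus LF then had 24 members below 0 and a median of -0.09, against 15 and 0.06 with HF 5. With HF 5 kept, leaving out HFLF 5, HFLF 6 or HFLF 3 gave 6, 7 and 8 members at an unadjusted p under 0.05 in HFLF minus HF. Leaving out HF 1 instead gave 19 there. In HFLF minus LF, leaving out LF 6 gave 15 and leaving out LF 5 gave 7. The share of all genes at that level was not counted in these fits with HF 5 kept. Their counts show only how the members depend on single libraries.

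Other markers moved with the eWAT comparisons. The summed level of 13 of 14 listed macrophage genes was 1001 to 1808 CPM in HFLF, 1454 to 2623 CPM in HF and 1572 to 2952 CPM in LF libraries, and all 13 had a difference below 0 in both HFLF comparisons, with medians of -0.42 against HF and -0.67 against LF. None of the 13 was at 0 in any library. The T cell sum was 32.9 to 45.0 CPM in HFLF, 29.7 to 71.9 CPM in HF and 38.2 to 125 CPM in LF libraries, and the B cell sum was 13.8 to 26.7 CPM in HFLF, 14.9 to 217 CPM in HF and 15.4 to 570 CPM in LF libraries. The part of macrophages and lymphocytes in the member differences was not tested. In HFLF minus HF the adipocyte list had 8 of 8 genes above 0 with a median of 0.19 and the endothelial list 7 of 7 with 0.14. The mesothelial list had 7 of 7 below 0 with a median of -0.94, the hepatocyte list 8 of 9 with -2.06 and the plasmacytoid dendritic cell list 4 of 4 measured of 7 listed with -1.81. Mesothelial sums were 6.80 to 349 CPM in HFLF and 46.2 to 554 CPM in HF libraries. Hepatocyte sums lay close together, at 3015 to 5304 CPM (median 4170) in HFLF and 3074 to 6540 CPM (median 4190) in HF libraries. Plasmacytoid dendritic cell sums were 2.70 to 6.23 CPM in HFLF libraries. They were 4.55 to 34.2 CPM in HF and 4.27 to 81.0 CPM in LF libraries, with maxima in HF 5 and LF 2. Siglech, a gene of this list, did not follow the sums. It stood at 3.72 CPM in HF 5, at 2.90 CPM in LF 2 and highest, at 4.13 CPM, in HFLF 2. The highest sums fell in LF 2, HF 5 and HF 3, which were also the libraries highest in B cell genes. Without HF 5 the HFLF minus HF median differences were 0.20 for adipocyte, 0.15 for endothelial and -0.71 for mesothelial genes. They were -0.96 for hepatocyte, -1.15 for plasmacytoid dendritic cell and -0.31 for macrophage genes. The part of these cells in the member differences was not tested either. Without the 3 libraries highest in B cell genes, HFLF minus HF had 33 members below 0 with a median of -0.19, and 3 at an unadjusted p under 0.05. Without the 4 libraries high in sperm-cell genes, 37 of 37 were below 0 against HF, with a median of -0.38. Against LF 36 of 37 were, also with a median of -0.38. That fit kept only LF 2 and LF 5 in LF, with mean member deviations of 0.16 and 0.27. HF 5, at 0.73, stayed in. It left out LF 6 at -0.22, HF 6 at -0.15, LF 3 at 0.15 and HF 2 at 0.01. Shares of all genes were not counted in this fit or the one before.

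**Figure D5:**
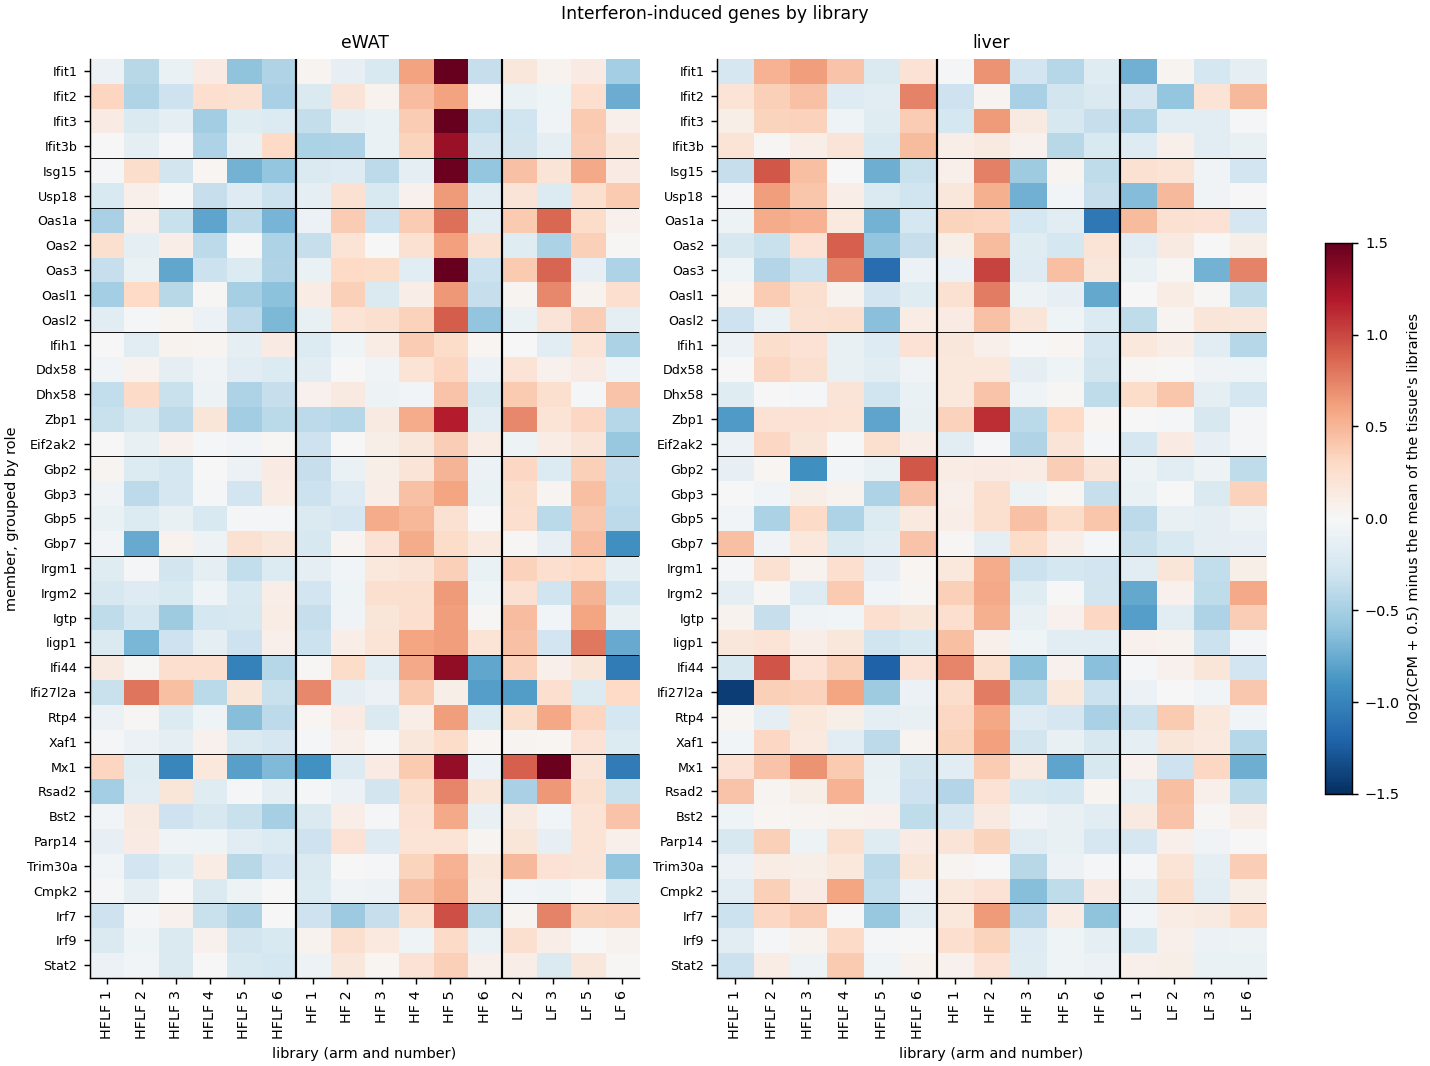
Log2(CPM + 0.5) of the 37 members minus the mean of the tissue's libraries, in eWAT (left) and liver (right), with libraries ordered HFLF, HF, LF and members grouped by role. Colours are capped at 1.5 in either direction. HF 5 in eWAT and HF 2 in liver are red for most members.

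In liver the arms again gave no call. edgeR called 0 of 37 members and 0% of the 13677 genes in the 3 comparisons, and DESeq2 and limma voom called 0 members. The median differences over members were 0.04 for HFLF minus HF, 0.11 for HFLF minus LF and 0.07 for HF minus LF, and 21, 26 and 24 members lay above 0, against 50.9%, 50.1% and 49.4% of all genes. Members at an unadjusted p under 0.05 numbered 2, 2 and 3, against 1.86%, 5.47% and 3.6% of all genes.

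The liver difference farthest from 0 was that of Gbp5 in HF minus LF, followed by that of Oas3 in HFLF minus HF, -0.61 ± 0.43 (edgeR adjusted p = 1.0). Gbp5, which in mouse macrophages supports inflammasome assembly, ranged from 0.789 to 1.69 CPM (median 1.15) in HFLF, and stood at 1.43, 1.62, 1.92, 1.67 and 1.90 CPM in HF and at 0.862, 1.16, 1.12 and 1.2 CPM in LF. All HF libraries lay above all LF libraries, but the Gbp5 values rest on few reads, 8 to 32 counts per liver library. The HF minus LF difference was 0.65 ± 0.25 and the HFLF minus HF difference -0.53 ± 0.22 (edgeR adjusted p = 1.0 each). Gbp2 had 3.78, 3.82, 3.79, 4.59 and 4.02 CPM in HF livers, against 3.25, 3.05, 3.25 and 2.54 CPM in LF livers, again without overlap, with a difference of 0.40 ± 0.27, and ranged from 1.59 to 7.03 CPM (median 3.26) in HFLF livers. The Gbp2 counts were also low, 16 to 80 per liver library. Of all genes, 0.702% were higher without overlap in HF minus LF.

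Ifit1 ranged from 7.36 to 13.9 CPM (median 11.2) in HFLF livers, against 5.17, 9.16, 7.31 and 7.93 CPM in LF livers, a difference of 0.54 ± 0.24 (edgeR adjusted p = 0.868). Ifit2 ranged from 2.93 to 6.06 CPM (median 4.25) in HFLF livers, against 2.64, 3.53, 2.28, 2.71 and 2.85 CPM in HF livers, a difference of 0.59 ± 0.23. Gbp7 ranged from 10.8 to 17.4 CPM (median 13.1) in HFLF livers, against 9.88, 10.6, 11.4 and 11.5 CPM in LF livers, a difference of 0.35 ± 0.14. In each case the ranges met or overlapped.

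Bst2 lay on the other side in liver. It stood at 139, 182, 159, 153 and 149 CPM in HF livers, against 182, 223, 167 and 178 CPM in LF livers, a difference of -0.26 ± 0.11 (edgeR adjusted p = 1.0), and ranged from 127 to 173 CPM in HFLF livers. Igtp had 36.98, 44.9, 28.6, 32.4 and 38.6 CPM in HF livers, against 17.2, 27.5, 22.4 and 40.3 CPM in LF livers, a difference of 0.43 ± 0.20. Trim30a, a regulator of Toll-like receptor signalling, had 7.5, 7.28, 5.29, 6.82 and 7.16 CPM in HF livers, against 7.16, 8.42, 6.49 and 9.51 CPM in LF livers, a difference of -0.21 ± 0.16. Zbp1, a sensor of Z-form nucleic acids that triggers cell death, had 10.99, 19.0, 6.37, 10.6 and 8.77 CPM in HF livers and ranged from 4.52 to 10.05 CPM (median 8.95) in HFLF livers. Its HFLF minus HF difference was -0.51 ± 0.26, and these ranges overlapped.

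The remaining liver members with values by library overlapped between the arms. Eif2ak2, the RNA-activated kinase PKR, ranged from 15.7 to 20.9 CPM (median 18.6) in HFLF livers, against 14.99, 16.6, 12.1, 19.3 and 16.6 CPM in HF livers, a difference of 0.21 ± 0.12. Dhx58 ranged from 14.4 to 20.6 CPM (median 17.1) in HFLF livers, against 21.8, 24.0, 16.1 and 14.8 CPM in LF livers, a difference of -0.16 ± 0.16. For the transcription factor Stat2 and the GTPase Iigp1, which led the members per kilobase in liver together with Bst2 and Igtp, the arms lay close together. Stat2 ranged from 70.0 to 115 CPM (median 87.5) in HFLF livers and stood at 91.6, 102, 77.7, 84.1 and 82.5 CPM in HF and at 92.8, 93.2, 82.2 and 81.8 CPM in LF livers. Iigp1 ranged from 216 to 308 CPM (median 293) in HFLF livers and stood at 364, 282, 256, 238 and 237 CPM in HF and at 279, 278, 214 and 261 CPM in LF livers.

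The ISG15, IFIT and OAS genes were more spread out in liver. Isg15 ranged from 4.83 to 16.3 CPM (median 7.39) in HFLF livers and stood at 8.78, 14.4, 5.59, 8.56 and 6.29 CPM in HF and at 9.88, 9.68, 8.05 and 6.72 CPM in LF livers. Ifit3 ranged from 9.95 to 14.9 CPM (median 13.3) in HFLF livers and stood at 9.35, 17.9, 12.4, 9.53 and 8.85 CPM in HF and at 8.09, 10.0005, 9.99 and 11.2 CPM in LF livers. HFLF 2 held the Isg15 maximum and HF 2 that of Ifit3. Ifit3b ranged from 2.12 to 3.78 CPM (median 2.91) in HFLF livers and stood at 2.78, 2.87, 2.71, 1.81 and 2.12 CPM in HF and at 2.19, 2.74, 2.25 and 2.35 CPM in LF livers. Oas3 ranged from 0.290 to 2.42 CPM (median 1.02) in HFLF livers and stood at 1.14, 3.01, 1.02, 1.88 and 1.46 CPM in HF and at 1.13, 1.26, 0.562 and 2.41 CPM in LF livers. With 3 counts worth 0.180 to 0.316 CPM in the liver libraries, the Oas3 values rest on few reads.

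The liver library HF 2 was the highest for 15 of 37 members, against 7.6% of all genes, and lay above the tissue mean for 35. Its ratio to the median of the other libraries was 2.64 for Oas3, 2.23 for Zbp1, 1.85 for Ifit1 and 1.76 for Isg15. HFLF 5 stood at the low end, above the tissue mean for 3 members. Without HF 2, HF minus LF in liver had 23 members below 0 and a median of -0.05, against 13 and 0.07 with it.

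The difference between the tissues was then tested in a joint fit. edgeR called 0 of 37 members and 0% of 12735 genes for the liver minus eWAT difference of any comparison, and DESeq2 called 23 genes for HFLF minus LF. For HFLF minus HF, 35 of 37 members had a positive tissue difference with a median of 0.32, and for HFLF minus LF 36 of 37 with a median of 0.34. At an unadjusted p under 0.05 there were 7 and 4 members, against 4.94% and 5.84% of all genes. They included Ifit1, with a tissue difference of 1.07 ± 0.42 for HFLF minus HF, and Igtp, with 0.76 ± 0.28 for HFLF minus LF (edgeR adjusted p = 0.665 for Igtp). For HF minus LF, 20 of 37 were positive, the median was 0.01 and no member reached that level, against 4.88% of genes. Without HF 5 in eWAT, HFLF minus HF had 30 of 37 positive with a median of 0.19 and 1 member at that level, against 3.69% of genes, and Ifit1 stood at 0.55 ± 0.31. HFLF minus LF had 36 of 37 positive and had 7 at that level, against 5.83% of genes, and HF minus LF had 27 of 37 positive. Over each library left out in turn, the members at that level ran from 1 to 13 for HFLF minus HF. The 13 came without HF 1 in eWAT or HF 2 in liver. For HFLF minus LF they ran from 3 to 8, the 8 without LF 6 in eWAT. Apart from the fit without HF 5, the share of all genes at that level was not counted.

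Members varied together from library to library, also within an arm. With arm means subtracted, each member was correlated with the mean of the other members over the 16 eWAT libraries, and the median Pearson r was 0.69, with 30 of 37 over 0.5, against 2.88% of the other genes. Without HF 5 the median was 0.61 with 23 over 0.5. In liver the median was 0.68 over 15 libraries, with 27 over 0.5 against 8.5% of other genes, and 0.60 without HF 2. These values share libraries and depth and are given as a description. In eWAT Ifi27l2a stood apart at -0.06, and in liver Gbp2, Gbp5 and Gbp7 at -0.17, -0.19 and -0.23.

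Pairwise correlations in eWAT differed in size by role. The median pairwise r was 0.77 among the 8 GTPases and 0.56 among the 11 genes of the ISG15 system, IFIT and OAS families, and 0.39 between the groups. Without HF 5 it was 0.81 and 0.31, and 0.25 between the groups. The same blocks in liver gave 0.20 for the GTPases, 0.43 for the ISG15, IFIT and OAS genes and 0.27 between them. Without HF 2 in liver they were 0.21, 0.30 and 0.22.

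Libraries of the same arm and number in both tissues, 14 pairs, did not stand apart in the same pairs. With arm means subtracted, HF 5 deviated by -0.08 in liver and by 0.62 in eWAT on average over members, and HF 2 by 0.40 in liver and by -0.11 in eWAT. The labels do not say that a number marks the same animal. Over the 14 pairs 23 of 37 members had a positive r, with a median of 0.16, against 50.8% and 0.01 over all genes.

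The wider pathway was read off the same fits. The listed interferon ligand genes did not appear among the genes kept in the deposited counts of either tissue. The receptor genes Ifnar1, Ifnar2, Ifngr1 and Ifngr2 averaged 60.4, 94.0, 269 and 52.6 CPM in eWAT and differed between HFLF and HF there by 0.04 ± 0.06, 0.02 ± 0.08, 0.04 ± 0.13 and -0.06 ± 0.10 on the log2 scale. The interferon gamma-responsive factor Irf1 differed in HFLF eWAT by -0.05 ± 0.08 against HF and by -0.12 ± 0.09 against LF.

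Among 70 measured further interferon-induced genes, 61 lay below 0 in eWAT for HFLF minus HF with a median of -0.28, and 58 for HFLF minus LF with a median of -0.21, and edgeR called 0. Of these, 13 and 14 were lower at an unadjusted p under 0.05, against 4.43% and 7.06% of all genes. Without HF 5, HFLF minus HF had 54 of 70 below 0, a median of -0.14 and 2 lower at that level, against 2.81% of all genes. For HFLF minus LF the 14 became 6 without LF 2 and 25 without LF 6, where the share of all genes was not counted. Slfn2, a schlafen family gene, had the smallest unadjusted p in the second comparison, with -0.91 ± 0.21 (edgeR adjusted p = 0.266), and Pml, the organiser of nuclear bodies, had -0.49 ± 0.12. Ifi27 went the other way against HF, at 0.34 ± 0.08 (edgeR adjusted p = 0.381). These 3 were chosen after their values were seen. In liver the same list had 32 of 66 above 0 for HFLF minus HF and 37 of 66 for HFLF minus LF.

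The MHC class I presentation genes, which interferons also induce, gave 14 of 18 below 0 in both HFLF comparisons in eWAT, with medians of -0.11 against HF and -0.26 against LF, and 10 lower at an unadjusted p under 0.05 against LF, where 7.06% of all genes were lower. HF minus LF had 15 of 18 below 0, a median of -0.17 and 4 lower at that level, against 4.22% of all genes. Most of the 18 thus lay below LF in each of the other arms. Without LF 2, HF minus LF had 11 of 18 below 0 and 1 lower at that level, and HFLF minus LF had 7 lower. The share of all genes without LF 2 was not counted. Without HF 5, 13 of 18 were below 0 in HFLF minus HF with a median of -0.07. The immunoproteasome subunit Psmb8 differed by -0.49 ± 0.13 and the peptide transporter Tap1 by -0.51 ± 0.14 against LF (edgeR adjusted p = 0.282 each), both chosen after their values were seen. In liver 6 and 11 of the 18 lay above 0 in HFLF minus HF and HFLF minus LF.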

How the data were processed

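RNA was sequenced from eWAT and liver of F1 males. The deposited values are raw counts per gene, 1 table per tissue, made by the authors. Their notes name the aligner STAR and the build GRCm38.p6, per the submitters' processing notes. Counting tool, annotation, strand setting and low-count filter were not given in the sources used. The deposited RPKM tables were not used. Gene models and exon lengths came from GENCODE M21 and promoter windows from RefSeq.

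Counts were tested with edgeR 4.0.16 (R 4.3.3), quasi-likelihood test, TMM scaling, all libraries of a tissue in 1 fit without a replicate block, and Benjamini-Hochberg adjustment over all genes at 0.05. SE is the log2 difference divided by the square root of F. CPM are TMM-scaled within a tissue unless called joint. Tissue levels and tissue differences came from a joint fit of 31 libraries over 12735 shared genes. The fits were tested on simulated data. Alternatives were DESeq2 1.42.0, limma 3.58.1 voom, RLE scaling, a mean CPM of at least 1, 2 arms only, a replicate block, and leaving libraries out.

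Members and lists were chosen with earlier results of these data known. Values by library were given for members past the test between arms (there were 0), the 2 members of smallest unadjusted p in each direction per tissue and comparison, the 4 of highest CPM per kilobase and the 4 of largest highest-to-median ratio per tissue, and Isg15, Ifit3 and Ifit3b. Other genes were Irf1, 4 interferon receptors and listed genes past the test (1 further gene of the rule is not reported here); 5 further genes are named as chosen later.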

Additional observations from a re-analysis of the deposited data

Results flagged for a closer look

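In each arm of 4 to 6 libraries, the gap of the highest or lowest library to its nearest neighbour was divided by the range. This gap share exceeded Dixon's limit in 13 of 222 member groups, where chance passes about 1 in 20. The members varied together, and the 13 groups are near that share. Of these, 6 were HF 5 in eWAT, with a gap share of 0.885 for Isg15, 0.793 for Oas3, 0.774 for Ifit3, 0.719 for Ifit1, 0.687 for Ifit3b and 0.672 for Rtp4. Zbp1 in HFLF 4 was the highest of the HFLF eWAT libraries, with a share of 0.660.

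In liver, HF 2 was the highest HF library for Ifit1 with a share of 0.712. Among HFLF livers, HFLF 6 was the lowest for Bst2 (0.676) and the highest for Gbp2 (0.640), and HFLF 4 was the highest for Irgm2 (0.685). Among LF livers, LF 6 was the highest for Ifi27l2a (0.856) and LF 3 the lowest for Zbp1 (0.860). The cause was not tested.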

How the results depend on the processing

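edgeR, DESeq2 and limma voom each called 0 members in the 6 arm comparisons under the alternatives run. DESeq2 called 52, 69 and 12 genes in eWAT for HFLF minus HF, HFLF minus LF and HF minus LF, 11 and 1 in liver for HFLF minus LF and HF minus LF, and 23 for the tissue difference of HFLF minus LF, where edgeR called 0. The cause was not tested. The tissue level calls were 32 members under RLE scaling, DESeq2 and limma voom, and 31 to 33 with a library left out.

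With a library left out, eWAT gene calls for HFLF minus LF were 0 to 13, the 13 without LF 5, and tissue difference calls 0 to 1. Members below 0 numbered 12 to 24 for HF minus LF in eWAT, 7 to 23 for HF minus LF in liver, 6 to 14 for HFLF minus LF in liver and 8 to 20 for HFLF minus HF in liver. In liver the 23 for HF minus LF and the 8 for HFLF minus HF came without HF 2, the 7 for HF minus LF without HF 6 and the 6 for HFLF minus LF without HFLF 5. The cause was not tested. In eWAT, HFLF minus HF had 33 to 37 members below 0 and HFLF minus LF 27 to 36, the fewest without HF 5 and LF 5. Ifih1 in HFLF minus LF ran from -0.037 to 0.19 and Ifi27l2a in HFLF minus HF from -0.14 to 0.20.

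Without the libraries high in sperm-cell genes, Irf7 stood at 0.046 in HF minus LF, Ifih1 at -0.13 in HFLF minus LF and Ifi27l2a at -0.18 in HFLF minus HF in eWAT. Without those high in B cell genes, Ifi27l2a stood at -0.018, and 23 members lay below 0 in HF minus LF.

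The labels do not say that numbers pair libraries across arms, so the numbers were not treated as pairing. Same-numbered libraries of different arms correlated at -0.34 to 0.38, and differently numbered ones at -0.39 to 0.45. Most same-numbered pairs were positive in each tissue, and an effect shared by a number was not tested. With the replicate block, liver HFLF minus LF had 1 gene called, and members below 0 in eWAT were 36 for HFLF minus HF and 29 for HFLF minus LF. The number of libraries, 4 to 6 an arm, limits the precision of each difference. Leaving out libraries for the role groups, the further lists and the member counts of the tissue differences was chosen after seeing the data.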
